A study of Homo sapiens with 10 samples.

Results

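RNA from HEK293FT cells given dCas9-VP64 and the guide labelled P4P6 was set against RNA from the same cells given dCas9-VP64 and the plain guide labelled sgRNA. HEK293FT is a human embryonic kidney line much used for plasmid transfection, and dCas9-VP64 is a Cas9 that no longer cuts DNA, fused to a transcriptional activator. The comparison rests on 4 of the 10 libraries of the study, 2 with P4P6 and 2 with sgRNA, and on the 11574 of 19301 named features whose mean over all 10 libraries was at least 1 FPKM, the deposited unit of fragments per kilobase of transcript scaled to the size of the library. P-values and calls use a spread estimated from all 10 libraries. The question was whether lower values of ribosomal protein and respiratory chain genes with P4P6 are shared by other transcripts of like abundance.

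Both groups carried integrated Gaussia and Cypridina luciferase genes and received 59 ng of dCas9-VP64 plasmid, 11.6 ng of the guide plasmid and 679.4 ng of carrier plasmid with 2.25 uL of Lipofectamine 2000, and RNA was taken after 3 days. All guides in the study are directed at the Gaussia reporter. The other 6 libraries, 2 each, held dCas9-VP64 with the guide labelled INT, with the guide labelled TOP1, or with no guide (CasVP). The labels do not describe how the P4P6 guide differs from the plain one. Whether replicates were separate cultures is not labelled, so p-values measure the spread between these libraries, which may be technical. Libraries are named by group and by the index of their column, as in P4P6 replicate 0.

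Estimated depth was about 20400000 and 23400000 fragments in the P4P6 libraries and 20700000 and 27500000 fragments in the sgRNA libraries, on a scale whose estimates for CasVP replicate 0 had quartiles of 25200000 and 32500000. The SD of the log2 difference between the 2 libraries of a group, over features, was 0.19 in P4P6 and 0.14 in sgRNA, against 0.10 to 0.14 in the other groups. Of 13 genes typical of HEK293 cells, 11 had a mean of at least 1 FPKM, and their summed level was 438 to 460 FPKM with P4P6 and 473 to 482 FPKM with sgRNA. Of 8 markers each of fibroblasts, blood cells, other epithelia and hepatocytes, at most 1 reached that level, and no list summed to more than 3.54 FPKM in any library. The construct transcripts raised 1 discrepancy with the labels. The P4P6 guide sequence was found in the P4P6 libraries alone, at 0.440 and 0.761 FPKM, but the feature named sgRNA was at 109 FPKM in P4P6 replicate 0 and 0 in P4P6 replicate 1, against 233 FPKM in sgRNA replicate 0 and 0 in sgRNA replicate 1. It was 0 in the other 6 libraries. Results that rest on P4P6 replicate 0 are therefore also given without it.

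The targeted Gaussia reporter stood at 189 and 163 FPKM with P4P6 and at 787 and 857 FPKM with sgRNA. The groups did not overlap, and the log2 difference was -2.22 ± 0.071 (SE, limma, adjusted p = 2.71e-07). The reporter was at 23.8 and 22.7 FPKM with CasVP, 356 and 366 FPKM with INT, and 257 and 273 FPKM with TOP1. Both P4P6 values were thus above those with no guide and below those with INT and TOP1. The dCas9-VP64 transcript was at 17.1 and 20.1 FPKM with P4P6 and at 24.0 and 23.4 FPKM with sgRNA, a log2 difference of -0.34 ± 0.070 (adjusted p = 0.0250). The Cypridina reporter, which no guide targets, overlapped at 1.54 and 1.71 FPKM with P4P6 and 1.62 and 1.38 FPKM with sgRNA (adjusted p = 0.707). The dCas9-VP64 transcript was at 14.8 and 14.6 FPKM with CasVP, 16.1 and 17.1 FPKM with TOP1, and 25.6 and 25.9 FPKM with INT. Against these 6 libraries its log2 difference in P4P6 was 0.0056 (limma, adjusted p = 0.959). Whether the dCas9-VP64 level has a part in any difference between the endogenous genes was not tested.

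Ribosomal proteins form the small and large subunits of the cytoplasmic ribosome, and their mRNAs are short, stable and among the most abundant of any growing cell. Respiratory chain proteins pass electrons from nutrients to oxygen in the inner mitochondrial membrane through complexes I to IV and make ATP at complex V. Most of their subunits are encoded in the nucleus by short genes that are expressed in nearly every tissue. The subunits encoded in mitochondrial DNA were not analysed here.

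Of 11574 features, 830 fell with P4P6 (7.17%) and 501 rose (4.33%), so that 11.5% changed in all. Counts of features that fell or rose are counts at an adjusted p under 0.05 (limma). The median log2 difference over all of them was -0.010, with quartiles of -0.12 and 0.096. In 30.6% of features both P4P6 libraries were below both sgRNA libraries, and in 25.9% both were above. With 2 other scalings more of the calls were rises, 298 beside 90 falls after quantile normalization and 312 beside 93 after cyclic loess normalization. When each library was rescaled by a median-of-ratios factor, falls stayed the larger part, 637 beside 557 rises. The count of 1331 also rests on single libraries: without P4P6 replicate 0 it was 2046, and without any other of the 4 libraries it was 1 or 2. Of 64 features that passed and are described here with their own values, 11 lost the call without P4P6 replicate 0, and 63 lost it without each of the other 3 libraries. The counts of members below are to be read against these shares.

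Ribosomal protein genes were lower with P4P6 almost throughout. Of the 79 genes, all of which were tested, 67 fell, among them 27 of 32 of the small subunit and 40 of 47 of the large subunit. Limma called 0 of them lower after quantile normalization (6 at an unadjusted p under 0.05), 0 lower and 1 higher after cyclic loess normalization (5 at an unadjusted p under 0.05), and 8 lower without a filter on low values. The median log2 difference was -0.28 for the list (quartiles -0.31 and -0.26), but -0.0015 after quantile normalization and -0.020 after cyclic loess normalization. It was -0.29 for the small subunit and -0.28 for the large one. Ribosomal protein genes themselves take part in setting the quantile and cyclic loess scalings at their own level. In 77 of the 79 the P4P6 libraries lay below the sgRNA libraries without overlap. Together these genes made up 31.5% and 30.2% of summed FPKM with P4P6, and 34.3% and 33.4% with sgRNA.

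RPL39, a small protein of the large subunit and the most abundant of the list, had 6374 and 5947 FPKM with P4P6 and 7936 and 7579 FPKM with sgRNA. The groups did not overlap (log2 difference -0.33 ± 0.077 SE, adjusted p = 0.0302). RPS18, of the head of the small subunit, had 5526 and 5072 FPKM with P4P6 and 7134 and 6555 FPKM with sgRNA. This difference of -0.37 ± 0.081 (adjusted p = 0.0260) was among the larger ones of the list. RPL41, the shortest ribosomal protein, had 5168 and 4841 FPKM with P4P6 and 6292 and 5978 FPKM with sgRNA, a difference of -0.29 ± 0.063 (adjusted p = 0.0251). The feature that joins RPS12 with the small nucleolar RNA in its intron, SNORD101, had 2717 and 2461 FPKM with P4P6 and 3495 and 3251 FPKM with sgRNA. With -0.38 ± 0.074 (adjusted p = 0.0250) it had the largest fall of the 67. RPLP1, an acidic protein of the stalk that recruits elongation factors, had 3686 and 3401 FPKM with P4P6 and 4600 and 4500 FPKM with sgRNA (-0.36 ± 0.074, adjusted p = 0.0250). In each of these 5 genes P4P6 replicate 1 was the lowest of the 4 libraries.

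The falls were alike in size: the 67 genes spanned log2 differences of -0.38 to -0.23. RPS2 did not pass, with 5394 and 4907 FPKM in P4P6 and 5645 and 5565 FPKM in sgRNA (-0.12 ± 0.066, adjusted p = 0.233). Among the other members that did not pass were RPS28, RPS20, RPL36, RPS15, RPL13, RPL14, RPL38, RPLP2 and RPL28, which are listed here because of their values. All of these had estimates below 0, and RPL28 overlapped between the groups. Of the 6 ribosomal protein genes with a GC content of 60% or more, 1 passed as lower. With a GC content of 40 to 45%, 12 of 12 passed. In all 6 the P4P6 libraries were below the sgRNA libraries without overlap. Their median log2 difference was -0.22, beside -0.30 for the 12.

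The nuclear-encoded respiratory chain showed a smaller shift in the same direction. Of 80 listed genes 79 were found and tested, 76 had estimates below 0 and 41 fell, against 2 after quantile normalization and 2 after cyclic loess normalization. The median log2 difference was -0.20 (quartiles -0.24 and -0.12), or -0.053 after quantile and -0.048 after cyclic loess normalization, and 68 of the 79 separated without overlap below sgRNA. Unlike the ribosomal proteins, which had a median level of 2232 FPKM, these genes had a median of 143 FPKM.

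In complex I, which takes electrons from NADH, 16 of 37 genes fell and the median log2 difference was -0.19. NDUFA1, an accessory subunit of its membrane arm, had 396 and 426 FPKM with P4P6 and 471 and 480 FPKM with sgRNA (-0.21 ± 0.057, adjusted p = 0.0430). NDUFB2, also of the membrane arm, had 171 and 154 FPKM with P4P6 and 207 and 218 FPKM with sgRNA. Its difference of -0.39 ± 0.064 (adjusted p = 0.0231) was the largest fall of the 41. NDUFS5, NDUFA7 and NDUFS4 fell by 0.29, 0.35 and 0.30 on the log2 scale. All of these genes separated without overlap.

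Complex II, which takes electrons from succinate, has 4 subunits, and SDHD, one of its membrane anchors, fell. SDHD had 77.6 and 76.3 FPKM with P4P6 and 98.2 and 95.9 FPKM with sgRNA (-0.33 ± 0.046, adjusted p = 0.0221). SDHA, the subunit that binds succinate, overlapped between the groups at 54.0 and 59.99 FPKM with P4P6 and 54.7 and 54.9 FPKM with sgRNA (0.053 ± 0.064, adjusted p = 0.615). Whether these 2 subunits differ from each other was not tested.

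Complex III, taken with cytochrome c, passes electrons on from ubiquinol, and 5 of its 9 genes fell with a list median of -0.15. UQCRH, its hinge protein, had 486 and 504 FPKM with P4P6 and 570 and 581 FPKM with sgRNA (-0.22 ± 0.047, adjusted p = 0.0252). UQCRC1, a core subunit, did not pass at 159 and 161 FPKM with P4P6 and 166 and 178 FPKM with sgRNA (-0.10 ± 0.055, adjusted p = 0.244).

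In complex IV, cytochrome c oxidase, 7 of 12 genes fell, with a median of -0.23. COX7C, the most abundant respiratory transcript measured, had 822 and 939 FPKM with P4P6 and 1036 and 1061 FPKM with sgRNA (-0.25 ± 0.065, adjusted p = 0.0380). COX6C had 380 and 355 FPKM with P4P6 and 447 and 465 FPKM with sgRNA (-0.31 ± 0.054, adjusted p = 0.0231). COX6A1 missed the threshold at 614 and 587 FPKM with P4P6 and 654 and 713 FPKM with sgRNA (-0.18 ± 0.056, adjusted p = 0.0582). The 3 are small nuclear-encoded subunits around the catalytic core, and in each the P4P6 libraries were below both sgRNA libraries.

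In complex V, the ATP synthase, 12 of 17 genes fell, with a median of -0.21. ATP5E, the epsilon subunit of the rotor stalk, had 560 and 541 FPKM with P4P6 and 688 and 660 FPKM with sgRNA (-0.29 ± 0.050, adjusted p = 0.0231). ATP5B, the catalytic beta subunit, had 515 and 509 FPKM with P4P6 and 588 and 589 FPKM with sgRNA (-0.20 ± 0.043, adjusted p = 0.0251). ATP5I, a subunit of the membrane part, had 395 and 388 FPKM with P4P6 and 517 and 477 FPKM with sgRNA (-0.34 ± 0.065, adjusted p = 0.0243). No gene of this trio overlapped between the groups.

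**Figure D1:**
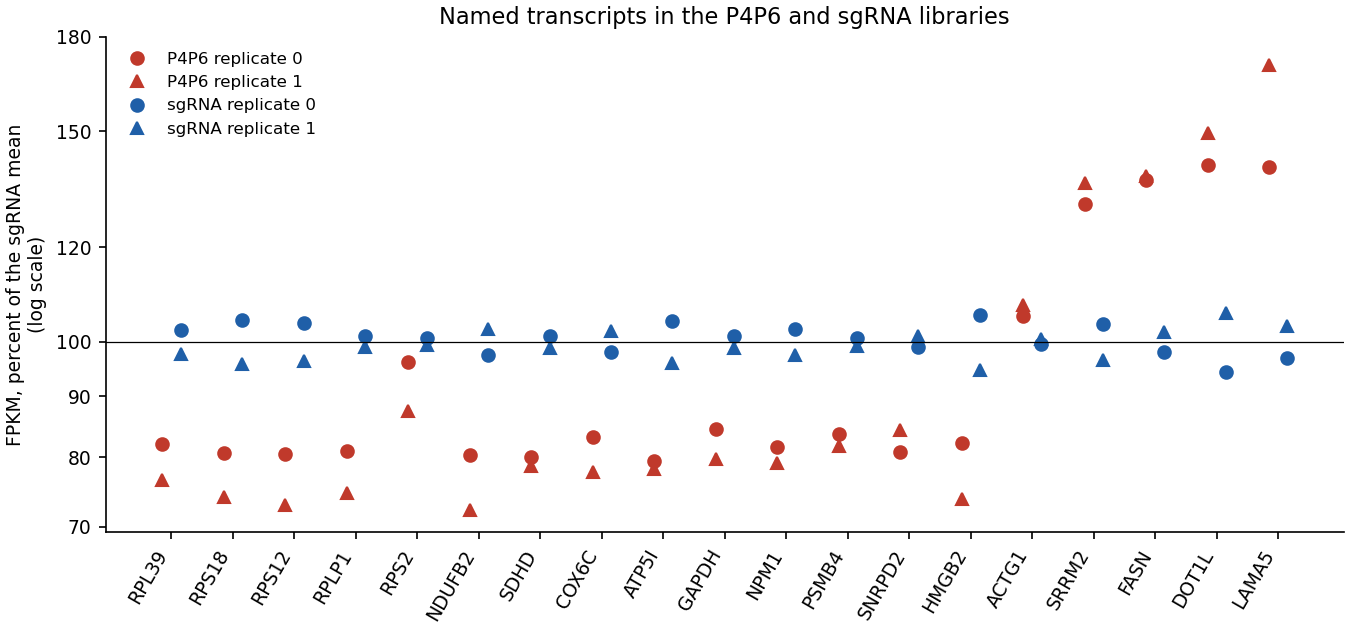
FPKM of 19 named transcripts in the P4P6 libraries (red) and the sgRNA libraries (blue), as a percent of the mean of the 2 sgRNA libraries, on a log scale. From RPL39 to HMGB2 the P4P6 points lie below 100%, with RPS2 the closest to it, while SRRM2, FASN, DOT1L and LAMA5 lie above it and ACTG1 only just.

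The calls rest on few libraries. Without P4P6 replicate 1, or without either sgRNA library, limma called 0 ribosomal protein genes and 0 respiratory genes, although 68 to 71 ribosomal protein genes and 44 to 59 respiratory genes still had an unadjusted p under 0.05. Without P4P6 replicate 0, 69 and 36 were called. In a fit of the 4 libraries of P4P6 and sgRNA alone, limma called 0 ribosomal protein genes and 0 respiratory genes. In that fit 75 and 55 had an unadjusted p under 0.05. The medians moved less: leaving out 1 library gave -0.34 to -0.24 for ribosomal proteins and -0.21 to -0.18 for the respiratory chain. Under cyclic loess normalization the estimates of RPL41, RPS2, UQCRC1, COX6A1 and ATP5B turned positive, and RPS2 passed as higher at 0.19 (adjusted p = 0.0331).

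Before any scaling that removes the trend with level, other transcripts of like abundance had the same direction. Outside both lists, 629 features had a mean of at least 100 FPKM, and of these 226 fell (35.9%) and 2 rose, with a median log2 difference of -0.16. After quantile normalization 4 fell and 29 rose, and after cyclic loess normalization 4 fell and 34 rose. Of these 629, 86.8% had estimates below 0. The shift grew with the level: the median log2 difference was 0.055 between 1 and 5 FPKM, 0.022 between 5 and 20, -0.046 between 20 and 50, -0.10 between 50 and 100, -0.15 between 100 and 200, -0.18 between 200 and 500, and -0.20 at 500 FPKM and over. The share that fell was 0.327% of 2445 features in the lowest of these ranges and 52.6% of 38 features in the highest. The share that rose was 2.99% in the lowest range, 5.67% of 4588 features between 5 and 20 FPKM, and 0.487% of 411 features between 100 and 200.

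Within a range of level, the median of the respiratory chain lay below that of the other features, and that of the ribosomal proteins lay lower still. Between 200 and 500 FPKM the median was -0.21 for 20 respiratory genes and -0.25 for 6 ribosomal protein genes, beside -0.18 for 180 other features. At 500 FPKM and over it was -0.23 for 6 respiratory genes and -0.29 for 71 ribosomal protein genes, beside -0.20 for 38 other features. Between 100 and 200 FPKM 25 respiratory genes had -0.19 beside -0.15 for the others, and between 50 and 100 FPKM 26 had -0.16 beside -0.10. Few features outside the list reach the level of ribosomal protein genes, so the 71 have a median level above that of the 38. The share that fell was 42.3% of respiratory genes and 19.6% of other features between 50 and 100 FPKM, and 44% and 31.1% between 100 and 200. It was 65% and 43.3% between 200 and 500 FPKM, and 83.3% and 52.6% at 500 FPKM and over. These medians and shares are descriptions, and no test was made between the lists.

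**Figure D2:**
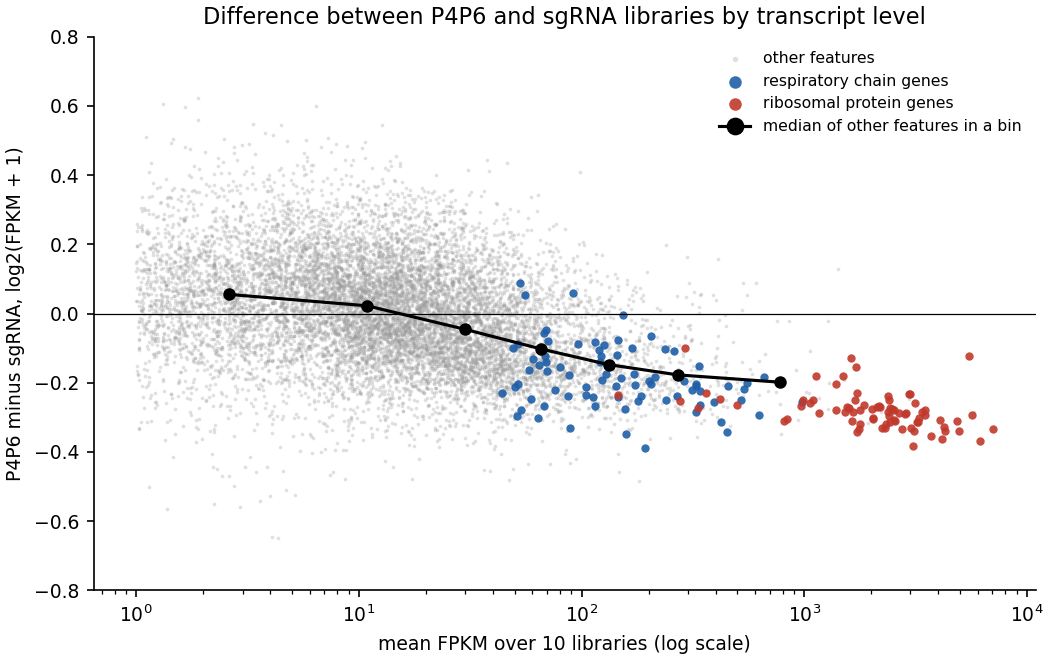
Log2 difference between P4P6 and sgRNA, on the log2(FPKM + 1) scale, against the mean FPKM over 10 libraries on a log scale, for each endogenous feature. The line joins the medians of features outside both lists in 7 ranges of level and runs from 0.055 to -0.20, with respiratory genes (blue) around and below it and ribosomal protein genes (red) at its lower right; 5 features beyond ±0.8 are not drawn.

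The most abundant features outside both lists fell by amounts like those of the lists. The feature joining EEF1A1 with EEF1A2, elongation factors that bring aminoacyl-tRNA to the ribosome, had 5183 and 5026 FPKM with P4P6 and 6340 and 6105 FPKM with sgRNA (-0.29 ± 0.072, adjusted p = 0.0362). GNB2L1, listed with its intronic SNORD96A, encodes the scaffold RACK1 on the small ribosomal subunit and had 2659 and 2634 FPKM with P4P6 and 3184 and 3094 FPKM with sgRNA (-0.25 ± 0.053, adjusted p = 0.0258). TPT1, the translationally controlled tumour protein, had 2141 and 2032 FPKM with P4P6 and 2486 and 2426 FPKM with sgRNA (-0.24 ± 0.055, adjusted p = 0.0307). These 3 have ties to translation, but the glycolytic enzyme GAPDH had 2010 and 1897 FPKM with P4P6 and 2405 and 2352 FPKM with sgRNA (-0.28 ± 0.055, adjusted p = 0.0250). In all 4 the groups were apart, but under cyclic loess normalization the estimates of EEF1A1,EEF1A2, GNB2L1,SNORD96A and TPT1 were 0.031, 0.038 and 0.037, and that of GAPDH was -0.015 (adjusted p = 0.823).

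Other features outside both lists fell as well. They are named for their level or the size of their difference within a range of level, so they do not stand for abundant transcripts in general. HMGB2, a chromatin protein that bends DNA, had 297 and 267 FPKM with P4P6 and 380 and 342 FPKM with sgRNA (-0.36 ± 0.075, adjusted p = 0.0251). TIMM10, a chaperone of the mitochondrial intermembrane space, had 50.3 and 45.5 FPKM with P4P6 and 67.2 and 62.9 FPKM with sgRNA (-0.43 ± 0.082, adjusted p = 0.0240). CMC1, an assembly factor of cytochrome c oxidase, had 61.4 and 58.2 FPKM with P4P6 and 82.6 and 79.8 FPKM with sgRNA (-0.43 ± 0.063, adjusted p = 0.0221). GSTO1, a glutathione transferase, and PEBP1, an inhibitor of RAF kinase, fell by 0.30 and 0.15 on the log2 scale, with PEBP1 at 0.0017 under cyclic loess normalization.

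Some features of like abundance did not fall. ACTG1, cytoplasmic gamma actin, had 636 and 649 FPKM with P4P6 and 602 and 608 FPKM with sgRNA (0.087 ± 0.057, adjusted p = 0.332). GNAS, the stimulatory G protein alpha subunit, had 554 and 540 FPKM with P4P6 and 512 and 517 FPKM with sgRNA (0.089 ± 0.048, adjusted p = 0.241). Neither passed, nor did the zinc finger transcription factor MAZ at 318 and 330 FPKM with P4P6 and 285 and 294 FPKM with sgRNA (0.16 ± 0.047, adjusted p = 0.0515). The 2 features at 100 FPKM or more that rose both act in splicing. PRPF8, a core protein of the spliceosome, had 110 and 115 FPKM with P4P6 and 96.5 and 98.5 FPKM with sgRNA (0.21 ± 0.049, adjusted p = 0.0310). SF1, which binds the branch point, had 116 and 111 FPKM with P4P6 and 100 and 97.2 FPKM with sgRNA (0.20 ± 0.049, adjusted p = 0.0339).

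The differences also varied with transcript length and GC content, taken from GENCODE annotation by gene symbol for 95.5% of the tested features. Outside both lists the median log2 difference was -0.13 for 94 features with a median transcript length under 600 nt, -0.14 for 663 between 600 and 1000 nt, -0.060 for 2790 between 1000 and 2000 nt, and 0.043 for 3572 features of 3500 nt and over. By GC content it was -0.072 for 1343 features under 40% and 0.11 for 1755 features of 60% and over. Of the 1009 features that were both at least 2000 nt long and at least 60% GC, 184 rose. Of the 168 that were under 1000 nt and under 45% GC, 49 fell, with a median of -0.18. The features outside both lists that fell had a median length of 1626 nt, a GC content of 44.2% and a level of 61.2 FPKM. Those that rose had 3958 nt, 58.9% and 13.99 FPKM, and those that did neither 2685 nt, 49.0% and 13 FPKM.

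**Figure D3:**
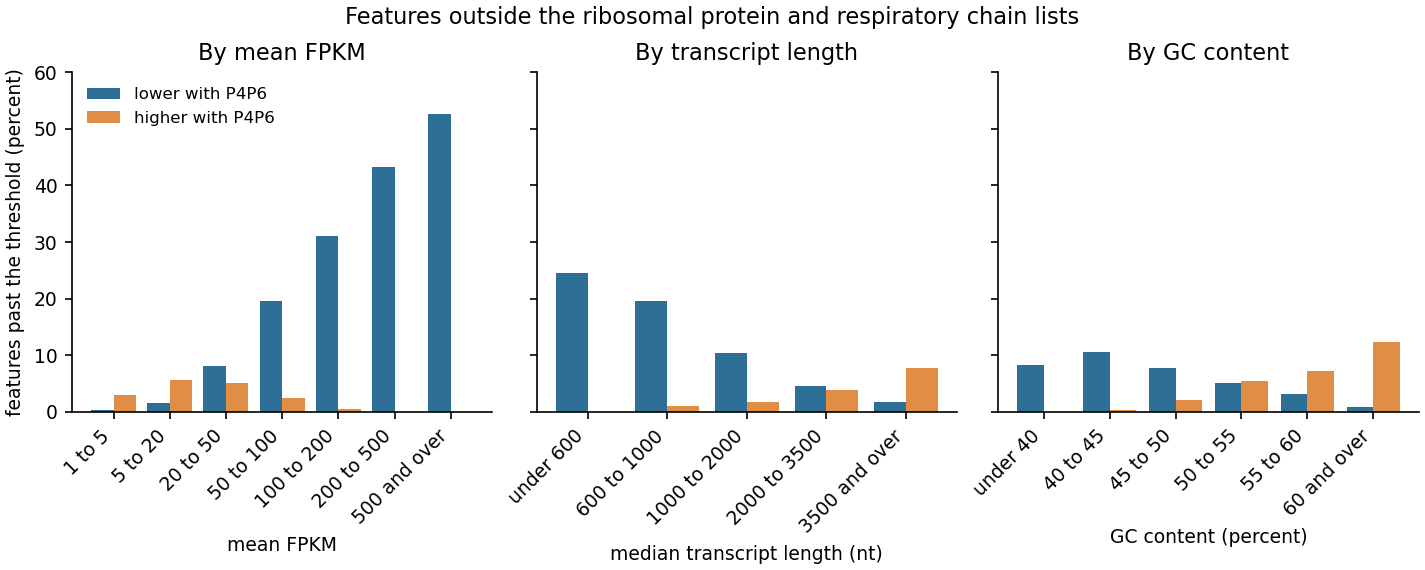
Percent of features outside the ribosomal protein and respiratory chain lists that fell (blue) or rose (orange) with P4P6 at an adjusted p under 0.05, by mean FPKM, by median annotated transcript length in nt and by GC content in percent. The share that fell reaches 52.6% at 500 FPKM and over, and the share that rose is highest in the range of highest GC content.

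Level and length each went with the difference when the other was held within a range. Between 200 and 500 FPKM the median was -0.22 for 42 features of 600 to 1000 nt and -0.16 for 38 features of 2000 to 3500 nt. Between 5 and 20 FPKM it was -0.055 for 156 features of 600 to 1000 nt and 0.052 for 1757 features of 3500 nt and over. Both lists are made of short transcripts, with a median length of 724 nt for ribosomal proteins and 761 nt for the respiratory chain. Among features of at least 200 FPKM and under 1000 nt, 12 of 18 respiratory genes fell, with a median of -0.22. In the same class 38 of 60 features outside both lists fell, also with a median of -0.22, and 49 of 58 ribosomal protein genes fell, with a median of -0.29. Among the features outside both lists of at least 100 FPKM, 97 of 184 with a GC content under 45% fell, beside 4 of 45 with 60% and over.

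**Figure D4:**
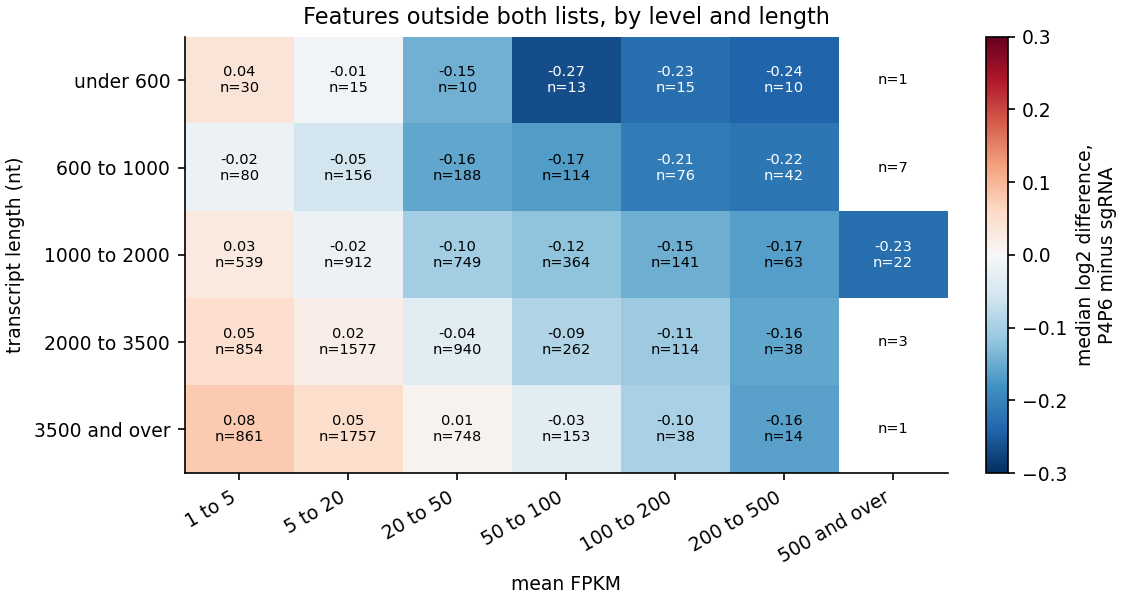
Median log2 difference between P4P6 and sgRNA of features outside both lists, in ranges of mean FPKM (columns) and of median transcript length in nt (rows), with the number of features; medians are shown for at least 10 features. Values are lowest towards the upper right, the corner of short and abundant transcripts, and are above 0 at the lower left.

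When smooth trends of each library with length and GC content were removed, an alternative added after the data had been seen, the median was -0.12 for ribosomal proteins, -0.052 for the respiratory chain and -0.068 for the other features of at least 100 FPKM. In that fit limma called 0 features, with 2050 at an unadjusted p under 0.05. Cyclic loess normalization, which removes a trend with abundance, gave medians of -0.020, -0.048 and -0.0097 for the same 3 classes. At 500 FPKM and over, 71 features are ribosomal protein genes, beside 6 respiratory genes and 38 others, so the ribosomal protein genes help set the trend that is removed. Their median near 0 in that fit therefore does not tell a fall of their own from a trend with abundance. What gave rise to these trends was not tested.

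Start sites of the transcripts named above are shown because many mRNAs of ribosomal proteins and translation factors begin with a C followed by a run of pyrimidines, a terminal oligopyrimidine tract that the mTOR and LARP1 pathway acts on. Each line gives 10 bases before and 20 bases from the annotated start in the RefSeq promoter table of GRCh38.p14, read 5′ to 3′ on the gene's strand, and capitals mark a run of at least 5 pyrimidines that starts with C at the first transcribed base.
RPL39: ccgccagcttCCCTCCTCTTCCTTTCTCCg
RPS18: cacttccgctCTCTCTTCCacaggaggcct
RPL41: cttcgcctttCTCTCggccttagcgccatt
COX7C: tcccatctttCTTTTCagtccttgcgcacc
ATP5E: gtggtctgatCTTCCTgcggctgaaccgcc
COX6A1: gcgctgcggcagtccagatcaaaaatggcg
GNB2L1: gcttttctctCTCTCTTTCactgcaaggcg
TPT1: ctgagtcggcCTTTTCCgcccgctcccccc
GAPDH: gtgcatccctgtccggatgctgcgcctgcg
SHISA4: ccaactgcccgcagtgcccatggtggctcg

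The windows lie at chrX:119791611-119791640 (minus strand) for RPL39, chr6:33272065-33272094 (plus) for RPS18, chr12:56116623-56116652 (plus) for RPL41 and chr5:86617931-86617960 (plus) for COX7C. They lie at chr20:59032316-59032345 (minus) for ATP5E, listed by RefSeq as ATP5F1E, chr12:120438103-120438132 (plus) for COX6A1 and chr5:181243887-181243916 (minus) for GNB2L1, listed as RACK1. Those of TPT1, GAPDH and SHISA4 lie at chr13:45341164-45341193 (minus), chr12:6535254-6535283 (plus) and chr1:201888667-201888696 (plus). Of all 35116 promoters in the table, 4.07% have such a run at the start. The table held 78.3% of the tested features by symbol, too few to give a share for each class, and no relation of the run with the difference was tested.

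Among the other gene groups, those of protein synthesis and turnover had medians between -0.15 and -0.19. Of 42 translation factors and ribosome-associated proteins 21 fell and 1, EIF4G1, rose (median -0.18). NPM1, a nucleolar chaperone of ribosome assembly, had 1695 and 1644 FPKM with P4P6 and 2130 and 2026 FPKM with sgRNA (-0.32 ± 0.064, adjusted p = 0.0250). EIF6, which keeps the ribosomal subunits apart, and EEF1B2, an exchange factor of elongation, both fell by 0.31 on the log2 scale. Of 76 mitochondrial ribosomal proteins 19 fell (median -0.15). MRPL24, of the large mitochondrial subunit, had 81.2 and 63.7 FPKM with P4P6 and 101 and 93.9 FPKM with sgRNA (-0.43 ± 0.10, adjusted p = 0.0307). MRPS23, of the small one, fell by 0.34.

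Of 32 proteasome subunits 17 fell, with a median of -0.19. PSMB4, a beta subunit of the catalytic core, had 314 and 307 FPKM with P4P6 and 378 and 372 FPKM with sgRNA (-0.27 ± 0.044, adjusted p = 0.0221), and PSMA5, an alpha subunit, fell by 0.29. Of 20 Sm and LSm proteins, the rings around spliceosomal and other small RNAs, 10 fell (median -0.19), with SNRPD2 at 331 and 345 FPKM with P4P6 and 405 and 414 FPKM with sgRNA (-0.28 ± 0.050, adjusted p = 0.0231) and SNRPE lower by a like amount (-0.28 ± 0.057, adjusted p = 0.0250). Of 22 chaperones 5 fell (median -0.14), among them HSPD1, the mitochondrial chaperonin, by 0.25 and CCT2, of the cytosolic one, by 0.22.

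The glycolytic enzymes and the SR proteins and hnRNPs were of similar abundance but had medians closer to 0. The 17 glycolytic enzymes had a median level of 165 FPKM, above that of the respiratory chain, but a median log2 difference of 0.011, and 3 of them fell. GAPDH was one of these, and ENO1, enolase, and LDHB, a lactate dehydrogenase subunit, fell by 0.20 and 0.24, with ENO1 at 0.044 under cyclic loess normalization. The 30 SR proteins and hnRNPs, which bind pre-mRNA in splicing, had a median level of 187 FPKM and a median difference of -0.058, and 5 fell, among them HNRNPA1 and SFRS3 (now SRSF3) by 0.25 and 0.22. Median transcript length was 1830 nt for the glycolytic enzymes, at 55.2% GC, and 2181 nt for the SR proteins and hnRNPs, at 43.8% GC. Of 26 cytoskeletal genes, at a median level of 122 FPKM, 3 fell and 1 rose. Their median of -0.14 was like that of the chaperones. The myosin light chain MYL6 was lower by 0.24. The tropomyosin TPM2 was higher, at 10.7 and 11.0 FPKM with P4P6 and 7.69 and 7.27 FPKM with sgRNA (0.49 ± 0.10, adjusted p = 0.0251). Of 17 subunits of the vacuolar proton pump 2 fell and 1 rose (median -0.020). Their median level was 44.3 FPKM, and features outside both lists between 20 and 50 FPKM had a median of -0.046.

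Genes that rose included long, GC-rich transcripts of moderate level. FASN, fatty acid synthase, had 46.6 and 47.0 FPKM with P4P6 and 33.5 and 34.8 FPKM with sgRNA (0.44 ± 0.046, adjusted p = 0.0119), and its annotated transcripts have a median length of 8486 nt and 65.3% GC. SREBF1, a transcription factor of lipid synthesis, had 15.6 and 16.2 FPKM with P4P6 and 11.8 and 13.6 FPKM with sgRNA (0.31 ± 0.078, adjusted p = 0.0381). HMGCS1, an enzyme of sterol synthesis, went the other way, at 23.7 and 25.98 FPKM with P4P6 and 31.2 and 28.6 FPKM with sgRNA (-0.26 ± 0.069, adjusted p = 0.0410). Over 21 genes of lipid synthesis 2 rose and 2 fell, with a median of -0.051.

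LAMA5, a laminin chain of basement membranes, had 5.14 and 6.25 FPKM with P4P6 and 3.56 and 3.78 FPKM with sgRNA (0.52 ± 0.096, adjusted p = 0.0238). DOT1L, a histone H3 methyltransferase, had 13.5 and 14.4 FPKM with P4P6 and 9.09 and 10.2 FPKM with sgRNA (0.49 ± 0.094, adjusted p = 0.0244). SRRM2, a spliceosome scaffold of nuclear speckles, had 115 and 120 FPKM with P4P6 and 91.5 and 85.5 FPKM with sgRNA (0.41 ± 0.059, adjusted p = 0.0221). None of these 3 overlapped between the groups. The palmitoyltransferase ZDHHC8 and KREMEN2, a receptor of the Wnt inhibitor Dickkopf, rose by 0.55 and 0.56, AMH, the anti-Müllerian hormone, by 0.55, and RAB3A, a GTPase of vesicle release, by 0.50. SHISA4 had the largest rise of all endogenous features that passed, at 2.58 and 2.49 FPKM with P4P6 and 0.973 and 1.67 FPKM with sgRNA (0.62 ± 0.18, adjusted p = 0.0484).

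Some transcripts of low level had larger falls than the members of the lists. ANXA1, annexin A1, had 1.81 and 1.44 FPKM with P4P6 and 2.84 and 2.84 FPKM with sgRNA (-0.55 ± 0.14, adjusted p = 0.0339). RLN2, the hormone relaxin, had 1.97 and 2.14 FPKM with P4P6 and 2.94 and 3.53 FPKM with sgRNA (-0.47 ± 0.10, adjusted p = 0.0260). In the other 6 libraries ANXA1 spanned 1.72 to 3.28 FPKM and RLN2 1.94 to 2.52 FPKM. Against those libraries neither passed in P4P6 (limma, adjusted p = 0.118 and 0.420).

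Of lists not tied to abundance, 1 of 26 p53 targets fell (median -0.14) and 1 of 11 tested interferon-stimulated genes rose. The gene that rose was STAT2, a transcription factor of the interferon response, at 9.20 and 9.83 FPKM with P4P6 and 8.15 and 7.86 FPKM with sgRNA (0.22 ± 0.062, adjusted p = 0.0454). STAT4, a cytokine-activated factor outside that list, had 1.52 and 2.32 FPKM with P4P6 and 1.07 and 1.04 FPKM with sgRNA (0.49 ± 0.13, adjusted p = 0.0383). Of 11 HEK293 genes LIN28B, an RNA-binding protein of embryonic cells, fell by 0.20. The 15 tested replication-dependent histone genes had a median of -0.073 and a median level of 2.25 FPKM.

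The 6 libraries of the other groups were used as a further comparison. Against them 668 features were lower in P4P6 (5.77%) and 518 higher (4.48%), 10.2% in all, and the P4P6 libraries are shared with the comparison above. In sgRNA against the same 6, limma found 1 feature higher, the Gaussia reporter (0.00864% of those tested), and 0 lower (0.0%), with 318 at an unadjusted p under 0.05. For ribosomal protein genes the median was -0.21 for P4P6 and 0.075 for sgRNA, each against the 6, with 54 of 79 lower in P4P6. For the respiratory chain the medians were -0.15 and 0.060, with 32 of 79 lower in P4P6. Gene by gene, the difference between P4P6 and sgRNA is the P4P6 value minus the sgRNA value of this pair.

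Library by library, the median deviation of ribosomal protein genes from their own mean over 10 libraries was -0.14 and -0.23 with P4P6 and 0.13 and 0.076 with sgRNA. It was 0.012 and -0.097 with INT, 0.14 and 0.092 with TOP1, and 0.032 and -0.0089 with CasVP. The P4P6 libraries were the lowest, INT replicate 1 lay next to them, and the TOP1 libraries were as high as those of sgRNA. The respiratory chain had -0.13 and -0.12 with P4P6 and 0.071 and 0.083 with sgRNA, and the other features of at least 100 FPKM had -0.086 and -0.10 with P4P6 and 0.061 and 0.049 with sgRNA. Features outside both lists with a GC content of at least 60% ran the other way, at 0.12 and 0.066 with P4P6 and -0.029 and -0.0024 with sgRNA. In this class P4P6 replicate 0 lay farther out, whereas in ribosomal proteins P4P6 replicate 1 did.

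**Figure D5:**
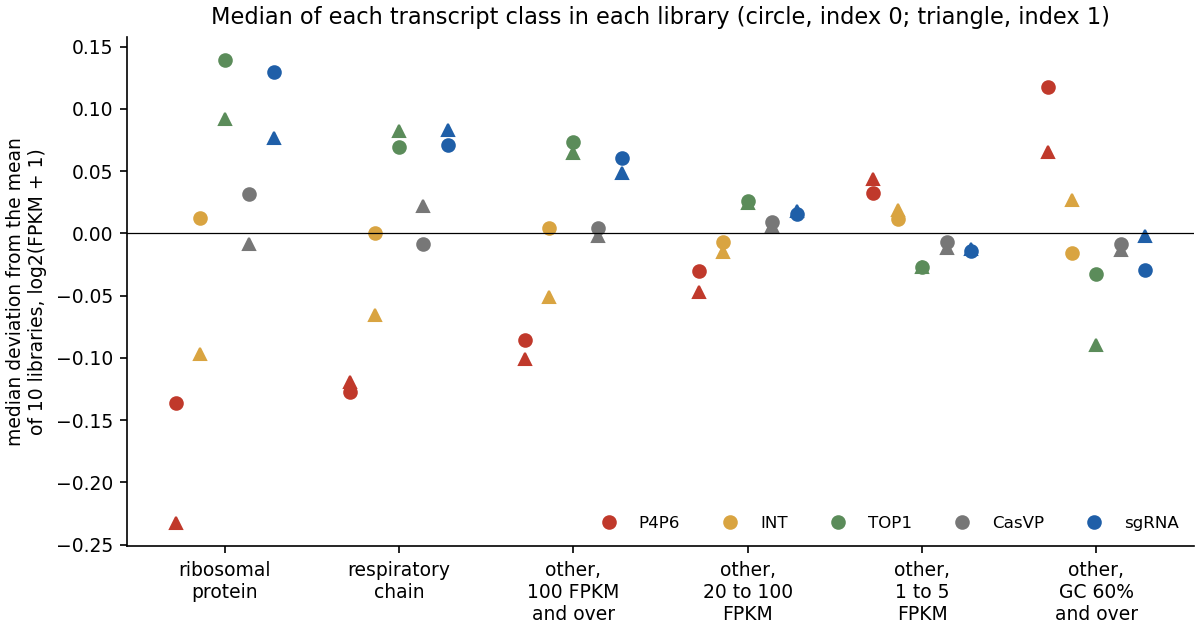
Median deviation, on the log2(FPKM + 1) scale, of 6 classes of transcripts from their mean over 10 libraries, with 1 point per library, by group. P4P6 (red) is lowest in ribosomal proteins at -0.14 and -0.23 and highest in GC-rich features at 0.12 and 0.066, and sgRNA (blue) lies with TOP1 on the other side of 0.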

How the data were processed

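Polyadenylated RNA of 10 libraries in 5 groups was measured, grouped by their labels. The submitters' processing notes name hg19, Cuffdiff 2.2.1 and TopHat2 2.0.13, and the authors deposited FPKM per feature and library. The annotation and the scaling are not given in the sources used here. The upper quartile of FPKM was 17.3 to 17.7 in all libraries. Unnamed features, 945 of 20246 and 2.31 to 2.47% of summed FPKM, were left out, and 509 tested features name several genes. Depth was estimated from the smallest steps of low values, of which 79.6% were whole multiples within a tolerance of 0.05.

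The values are not counts, so log2(FPKM + 1) was tested with limma 3.58.1 in R 4.3.3 (intensity trend, 1 mean per group, all 10 libraries, 5 residual degrees of freedom, two-sided, Benjamini-Hochberg over all 11574 features, threshold 0.05). Log2 differences are on this scale, which understates changes of low transcripts. The code was tested on simulated data. Gene lists are described by counts and medians, with no test of a list.

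The members, lists and comparisons were chosen with earlier results of these data known. Named genes follow a rule on level and size of difference: construct transcripts; the 12 largest differences each way that passed without overlap; the 4 most abundant members and the 4 with the largest difference in each main list; the 3 with the largest difference in each other list; and features of each range of level. Others are named because of their values. Transcript length is the median over annotated transcripts of GENCODE release 29, matched by symbol and older symbol, and GC content comes from the same transcripts. That annotation is on another build than the authors', so no coordinate was carried over. Alternatives were another pseudocount, filter, scaling or variance model, a replicate block, fewer libraries, features of 1 gene, and removed trends with length and GC content. Some genes are not reported here.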

Additional observations from a re-analysis of the deposited data

How the results depend on the processing

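Of 1331 features that passed in P4P6 against sgRNA, a pseudocount of 0.1, a minimum of 5 FPKM, median-of-ratios factors, features of 1 gene and features of known length gave 1194 to 1457. There were 641 without a filter, 388 after quantile normalization (298 higher, 90 lower), 405 after cyclic loess (312 and 93), 668 without the trend (340 and 328, against 501 and 830), 384 with library weights, 2 with the 4 libraries alone, and 0 with length and GC trends removed. Leaving out 1 library gave 1 to 2046, the 2046 without P4P6 replicate 0 and at most 2 without any other. For P4P6 against the other 6 libraries (1186), the counts were 477 without a filter, 425 after quantile normalization (338 higher, 87 lower), 432 after cyclic loess (356 and 76), 512 without the trend (314 and 198, against 518 and 668), 0 with library weights (2359 at an unadjusted p under 0.05), 0 with the trends removed, and 0 to 1716 without 1 library. The feature of sgRNA against the 6 has no length, so that both fits on features with a length gave 0.

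With the replicate index as a block, 2326 and 2302 features passed. Ribosomal protein genes called lower were then 72, respiratory genes 49 and other features of at least 100 FPKM 320, and COX6A1 passed (adjusted p = 0.0277). Same-numbered deviations correlated at 0.13 to 0.42 in 8 of 10 pairs of groups, with P4P6 and sgRNA at 0.42, but at 0.086 between CasVP and TOP1 and at -0.036 between INT and TOP1. The indices were not taken as pairing the libraries, since not every pair exceeded 0.1.

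The median of ribosomal proteins was -0.0015 after quantile normalization, which equalises the libraries where these genes lie, -0.020 after cyclic loess, -0.12 with the trends removed and -0.34 to -0.24 without 1 library. That of the respiratory chain was -0.19 with median-of-ratios factors, -0.053, -0.048, -0.052 and -0.21 to -0.18 under the same settings, and that of other features of at least 100 FPKM was -0.15, -0.012, -0.0097, -0.068 and -0.16 to -0.15. Without the trend 52, 22 and 84 members of these classes were called lower, with library weights 36, 21 and 87, and without a filter 8, 29 and 118.

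Named genes changed sign as follows. After quantile normalization RPS2 had 0.070, UQCRC1 0.025, GNB2L1,SNORD96A 0.052, TPT1 0.048, GAPDH 0.00032 and PEBP1 0.0083. After cyclic loess RPL41 had 0.021, RPS2 0.19, UQCRC1 0.043, COX6A1 0.027, ATP5B 0.0024, EEF1A1,EEF1A2 0.031, GNB2L1,SNORD96A 0.038, TPT1 0.037, ENO1 0.044 and PEBP1 0.0017. Without P4P6 replicate 0 ELOVL5 had -0.10, and without P4P6 replicate 1 SDHA had -0.022. Over the libraries left out, ELOVL5 spanned -0.10 to 2.53 and SDHA -0.022 to 0.13. The causes were not tested.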

Other observations

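ELOVL5, an elongase of polyunsaturated fatty acids, stood at 349 FPKM in P4P6 replicate 0 and 55.5 FPKM in P4P6 replicate 1, against 60.8 and 58.6 FPKM with sgRNA and 56.8 to 62.6 FPKM in the other 6 libraries, so its log2 difference of 1.21 ± 0.59 (SE, limma, adjusted p = 0.195) came from 1 library.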
